A study of Mus musculus with 6 samples.

Results

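The aryl hydrocarbon receptor gene Ahr, its feedback genes Ahrr and Tiparp and its target genes Cyp1a1, Cyp1a2, Cyp1b1, Aldh3a1 and Scin were examined in stimulated CD4+ T cells exposed to icilin. All 8 genes were found on the array by their single annotated symbol, among 22180 genes in all, and they were read by 9 of its 41345 probe sets, a probe set being the group of probes summarised into a single value. Tiparp was read by 2 probe sets and each of the other genes by 1. The members were picked as known genes of the receptor pathway, not by a threshold on measured values. Earlier results of these data were known when they were picked.

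The icilin group consisted of splenic CD4+ T cells of wild-type female C57BL/6 mice about 8 weeks old, kept for 24 h with 100 µM icilin dissolved in dimethyl sulfoxide (DMSO). The vehicle group consisted of the same kind of cells kept for 24 h with DMSO alone. In both groups antibodies against CD3 and CD28, each at 10 µg/mL, had been given for 24 h beforehand, so resting cells were not compared. Each group held 3 arrays, and both drew on the same 3 mice. Only 1 concentration and 1 time were measured.

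Icilin is a synthetic cooling compound that carries a hydroxyphenyl and a nitrophenyl ring. The aryl hydrocarbon receptor is a transcription factor that waits in the cytosol with chaperones, binds planar aromatic molecules and tryptophan-derived metabolites, moves to the nucleus and pairs with ARNT on DNA motifs with the core GCGTG. Its activation is usually read from a rise of the cytochrome P450 genes of the Cyp1 family and of the inhibitors Ahrr and Tiparp, which close a feedback loop. Among CD4+ T cells the receptor is best known from Th17 cells and from regulatory cells that secrete interleukin 10, and it is needed for interleukin 22 production.

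The promoters of the feedback genes and of Cyp1a1, the classical target, are shown because they carry that core motif. Of these genes, only Tiparp passed the test between icilin and vehicle arrays given below. The sequences are RefSeq's, build GRCm38.p6, from 250 bases before to 50 bases after the start of transcription, and the capitals mark GCGTG or its reverse complement. Tiparp was taken from chr3:65528197-65528496 on the plus strand, Ahrr from chr13:74292282-74292581 on the minus strand and Cyp1a1 from chr9:57697363-57697662 on the plus strand.
Tiparp: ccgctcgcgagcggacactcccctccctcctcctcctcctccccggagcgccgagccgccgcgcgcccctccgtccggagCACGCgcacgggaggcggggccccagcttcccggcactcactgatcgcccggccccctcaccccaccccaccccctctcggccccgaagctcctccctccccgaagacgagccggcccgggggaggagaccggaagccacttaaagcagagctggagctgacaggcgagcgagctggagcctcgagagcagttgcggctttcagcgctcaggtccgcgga
Ahrr: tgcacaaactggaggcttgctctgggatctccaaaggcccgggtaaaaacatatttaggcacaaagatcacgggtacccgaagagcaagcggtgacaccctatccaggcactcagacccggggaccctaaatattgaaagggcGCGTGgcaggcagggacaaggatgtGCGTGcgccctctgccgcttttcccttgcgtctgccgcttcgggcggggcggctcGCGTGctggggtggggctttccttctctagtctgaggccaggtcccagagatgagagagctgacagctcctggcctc
Cyp1a1: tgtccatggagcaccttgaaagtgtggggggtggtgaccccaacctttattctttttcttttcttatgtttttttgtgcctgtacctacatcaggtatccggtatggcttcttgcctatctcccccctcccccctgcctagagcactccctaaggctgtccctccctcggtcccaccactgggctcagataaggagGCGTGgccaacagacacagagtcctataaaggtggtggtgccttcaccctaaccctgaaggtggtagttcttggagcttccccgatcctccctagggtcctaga

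RefSeq's table held promoters of 6 of the 8 genes, the entries for Ahr and Aldh3a1 missing. Of these 6, 5 had GCGTG on either strand, which 32.4% of all 32841 promoter windows of 300 bases also had. The match began at position -170 in Tiparp (minus strand), at -54 in Cyp1a1, at -76 in Cyp1b1 (minus strand) and at -35 in Scin, counted from the start of transcription, and no match lay in the window of Cyp1a2. Ahrr had 3 matches, beginning at -107, -82 and -27. The last of these lay within the longer motif TNGCGTG, which 5.1% of all windows had and which was not found in the windows of the other 5 genes. The motif ACGTG, which differs from the core in a single base and was also searched on both strands, was in 19.6% of all windows and in 0 of these 6. A match describes letters only, and binding was not measured. Sequence outside the windows of 300 bases was not searched.

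No rise of these 7 target and feedback genes passed the test in icilin-treated cells, so the joint rise by which receptor activation is usually read was not seen at this concentration and time. Tiparp fell 1.78-fold, and it was the single member that passed the study's own limits, 1.5-fold together with a false discovery rate (adjusted p) under 0.1. The receptor gene Ahr was 1.33-fold higher, with an adjusted p under 0.1 but short of 1.5-fold. Ahrr and Scin were lower on every icilin array and did not pass the test, and the 3 Cyp1 genes and Aldh3a1 had overlapping groups. Of all genes tested, 1.40% passed both limits, 1.03% lower and 0.370% higher with icilin. By adjusted p alone, 2 of the 8 members passed, against 5.28% of all genes: Ahr higher, as 2.27% of all genes were, and Tiparp lower, as 3.00% were. By unadjusted p under 0.05, 4 of the 8 passed, 1 higher and 3 lower, against 17.1% of all genes. The median log2 fold change of the 8 genes was -0.07 and that of all genes 0.01.

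**Figure D1:**
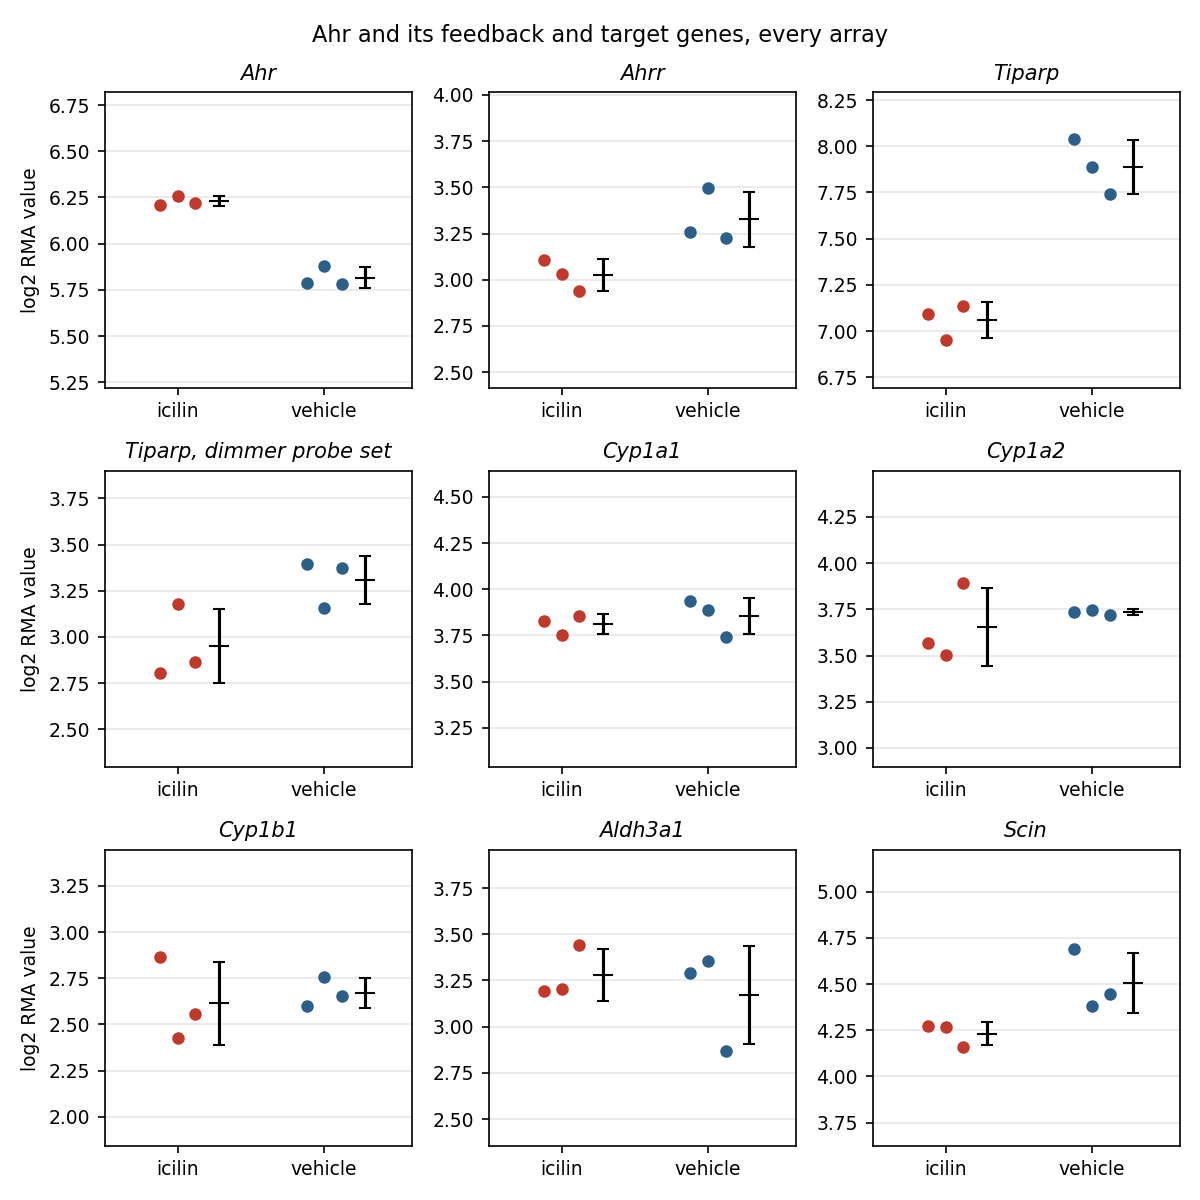
Log2 RMA value of each probe set (vertical axis, every panel spanning the same range of log2 units) on the icilin and vehicle arrays; points are single arrays and the bars beside them show the mean and SD of 3 arrays. The groups stand apart for Ahr (icilin higher), and for Ahrr, the brighter Tiparp probe set and Scin (icilin lower).

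Tiparp encodes a mono-ADP-ribosyltransferase, also called PARP7, that the receptor induces and that in turn dampens receptor activity. Its brighter probe set had log2 values of 7.09, 6.95 and 7.14 on the icilin arrays, against 8.04, 7.89 and 7.74 on the vehicle arrays. All 3 icilin arrays were low and the groups did not overlap, the gap between them exceeding the spread within either. The means were 7.06 ± 0.10 with icilin and 7.89 ± 0.15 with vehicle (SD, n = 3 each). The log2 fold change was -0.83 ± 0.10 (SE; limma adjusted p = 0.00632), with a 95% interval of -1.05 to -0.60. Leaving out each array in turn gave -0.90 to -0.75, with adjusted p of 0.0184 to 0.0383.

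The dimmer Tiparp probe set, at brightness percentile 28.5 of all probe sets, had log2 values of 2.80, 3.18 and 2.87 with icilin and 3.39, 3.16 and 3.37 with vehicle. Icilin replicate 2 was above vehicle replicate 2, so here the groups overlapped. In a fit over every probe set, this one differed by -0.36 ± 0.13 (SE; adjusted p = 0.351) and the brighter one by -0.83 ± 0.10 (adjusted p = 0.0306). The mean of both probe sets had a log2 fold change of -0.59 (adjusted p = 0.0101), just past 1.5-fold. In the fit over every probe set, the call of Tiparp ended without any 1 of icilin replicates 1, 2 and 3 or vehicle replicates 1 and 2 (-0.87 to -0.75, adjusted p 0.106 to 0.153), and it held without vehicle replicate 3 (adjusted p = 0.0909).

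Ahr, the receptor itself, differed in the opposite direction. Its log2 values were 6.21, 6.26 and 6.22 on the icilin arrays, against 5.79, 5.88 and 5.78 on the vehicle arrays. The icilin arrays lay close together and entirely above the vehicle arrays. The means were 6.23 ± 0.03 and 5.82 ± 0.06 (SD, n = 3 each), and the log2 fold change was 0.41 ± 0.06 (SE; adjusted p = 0.0192). Its 95% interval of 0.26 to 0.56, which is 1.20-fold to 1.48-fold, ended below 1.5-fold. With each array left out in turn the difference was 0.40 to 0.45.

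Ahrr encodes the repressor that competes with the receptor for ARNT, and it is among the most steeply induced genes when the receptor is active in other cell types. Its log2 values were 3.11, 3.03 and 2.94 with icilin, against 3.26, 3.50 and 3.23 with vehicle. The groups did not overlap, but the gap between them was narrower than the spread of the vehicle arrays. The log2 fold change was -0.30 ± 0.09 (SE; adjusted p = 0.165), with a 95% interval of -0.52 to -0.08.

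The Cyp1 genes encode the cytochrome P450 enzymes that oxidise aromatic compounds, and Cyp1a1 is the standard read-out of receptor activity. Cyp1a1 had log2 values of 3.83, 3.75 and 3.85 with icilin and 3.94, 3.89 and 3.74 with vehicle. The lowest and the second highest vehicle arrays enclosed all 3 icilin arrays. The log2 fold change was -0.04 ± 0.08 (SE; adjusted p = 0.824), and the 95% interval ran from -0.22 to 0.14, its upper end a 1.10-fold rise of the deposited values.

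Cyp1a2, best known as a liver enzyme, had log2 values of 3.57, 3.50 and 3.89 with icilin and 3.74, 3.75 and 3.72 with vehicle. The vehicle arrays were nearly equal, while icilin replicate 3 lay above them and icilin replicates 1 and 2 below. Its log2 fold change was -0.08 ± 0.11 (SE; adjusted p = 0.760; 95% interval -0.33 to 0.17). Cyp1b1, the remaining Cyp1 gene, had log2 values of 2.86, 2.43 and 2.56 with icilin and 2.60, 2.76 and 2.66 with vehicle. The highest and the lowest value were both from icilin arrays. Its log2 fold change was -0.06 ± 0.12 (SE; adjusted p = 0.854; 95% interval -0.34 to 0.22), so the upper ends of the intervals corresponded to a 1.13-fold rise for Cyp1a2 and a 1.17-fold rise for Cyp1b1.

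Aldh3a1, an aldehyde dehydrogenase gene of the classical receptor target battery, had log2 values of 3.19, 3.20 and 3.44 with icilin and 3.29, 3.35 and 2.87 with vehicle. Vehicle replicate 3 was the lowest array of all and the other vehicle arrays lay among the icilin arrays. The log2 fold change was 0.11 ± 0.14 (SE; adjusted p = 0.757), with the widest 95% interval of the 8 genes, -0.23 to 0.44. Scin, which encodes the actin-severing protein scinderin and is induced by receptor ligands in mouse thymocytes, had log2 values of 4.27, 4.27 and 4.16 with icilin and 4.69, 4.38 and 4.45 with vehicle. All icilin arrays were below all vehicle arrays, by less than the spread of the vehicle arrays. Its log2 fold change was -0.27 ± 0.09 (SE; adjusted p = 0.203; 95% interval -0.50 to -0.05).

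**Figure D2:**
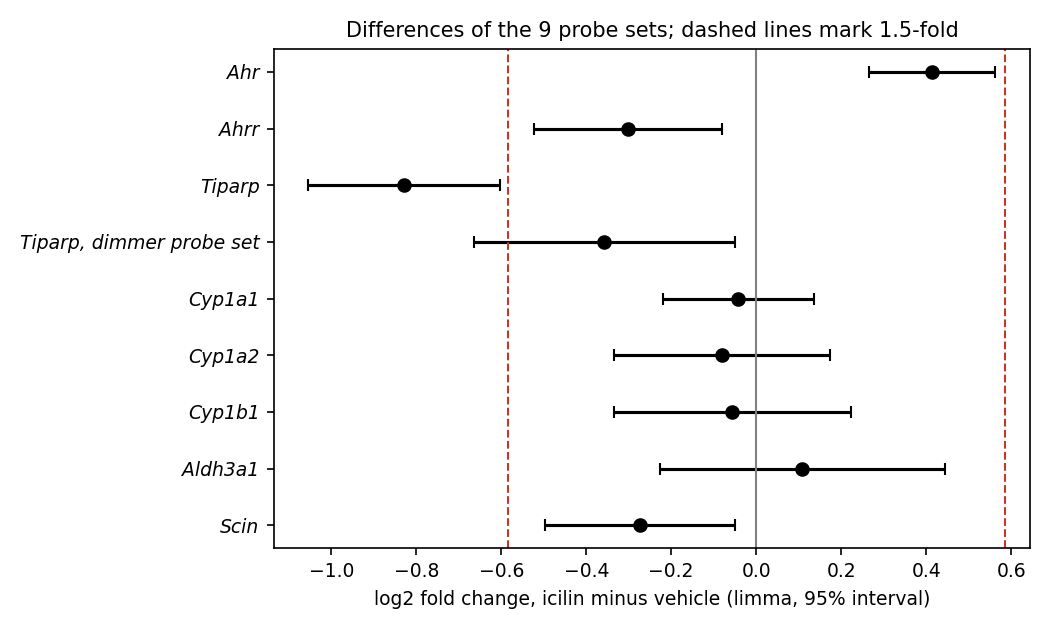
Log2 fold change, icilin minus vehicle (horizontal axis), with 95% intervals from limma for each gene and for the dimmer Tiparp probe set (from the fit over every probe set); dashed lines mark 1.5-fold in each direction. The interval of the brighter Tiparp probe set lies beyond the lower line, at -1.05 to -0.60, and that of Ahr lies above 0 and below the upper line, at 0.26 to 0.56.

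Groups did not overlap in 4 of the 8 genes, Ahr with icilin above and Ahrr, Tiparp and Scin with icilin below. Over all genes the groups did not overlap in 24.1%. Of the 8 genes, 6 had a difference below 0, as had 47.0% of all genes; the 2 above 0 were Ahr and Aldh3a1.

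Most of these genes were dim. By the mean of all 6 arrays, Tiparp ranked 4806 and Ahr 7821 among 22180 genes counted from the brightest, at percentiles 78.3 and 64.7. The other 6 were dimmer than the median gene, whose mean was 4.57: Scin at percentile 46.9 (rank 11774), Cyp1a1 at 37.1 (rank 13952), Cyp1a2 at 34.4 (rank 14545), Aldh3a1 at 25.4 (rank 16553), Ahrr at 24.5 (rank 16743) and Cyp1b1 at 15.8 (rank 18680). Probes differ in affinity, so the rank places a probe set on the array and does not measure how much RNA there was.

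The olfactory receptor genes, which T cells are not known to use, gave a scale for dim probe sets. The 1105 genes had a median of 2.08, with 5% and 95% points of 1.38 and 4.10. Tiparp was brighter than all of them and Ahr brighter than 99.8%. Scin was brighter than 96.0%, Cyp1a1 than 92.4%, Cyp1a2 than 90.8%, Aldh3a1 than 84.5%, Ahrr than 83.4% and Cyp1b1 than 72.1%. The Cyp1 genes, Aldh3a1 and Ahrr thus lay between the 5% and 95% points of the olfactory receptor genes. RMA compresses changes at this level, so a small rise from such a level may not have been detectable.

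**Figure D3:**
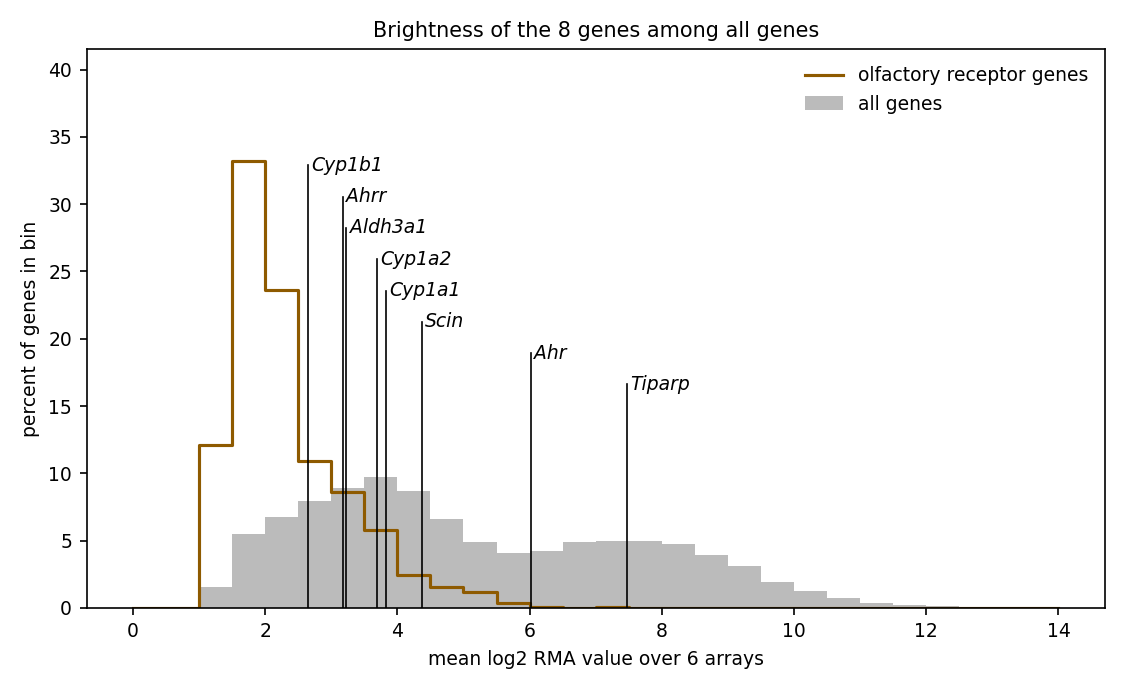
Percent of genes (vertical axis) by mean log2 RMA value over 6 arrays (horizontal axis) for all 22180 genes (grey bars) and for 1105 olfactory receptor genes (line); vertical lines mark the 8 genes. Tiparp and Ahr stand to the right of nearly all olfactory receptor genes, and Cyp1b1, Ahrr, Aldh3a1, Cyp1a2 and Cyp1a1 stand among them.

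Genes around the receptor were read from 8 further lists, described by counts; errors beside their log2 fold changes are SE. Over all genes, 1.03% fell and 0.370% rose past both limits, 3.00% were lower and 2.27% higher by adjusted p alone, 8.05% were lower and 9.09% higher by unadjusted p under 0.05, and the median log2 fold change was 0.01. Of 12 measured genes for partners, chaperones and coregulators of the receptor, 0 passed by limma and 0 by significance analysis of microarrays (SAM), the test the study states. By unadjusted p under 0.05, 2 were higher and 0 lower, and the list median was 0.04. Arnt, the dimer partner, had means of 8.97 with icilin and 9.07 with vehicle (-0.10 ± 0.07, adjusted p = 0.554), named after its value was seen. The coactivator gene Ncoa1 had the smallest p of the list, with means of 7.70 and 7.51 (0.19 ± 0.07, adjusted p = 0.209).

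Of 12 other transcription factor genes of the bHLH-PAS family, to which the receptor belongs, 1 fell and 11 did not pass. Hif3a, which encodes a hypoxia-inducible factor subunit that restrains its relatives, had log2 values of 5.46, 5.18 and 5.73 with icilin and 6.18, 6.38 and 6.51 with vehicle. The groups did not overlap, and the log2 fold change was -0.90 ± 0.15 (SE; adjusted p = 0.0262). Its call ended without vehicle replicate 2 (-0.89, adjusted p = 0.101). The list median was 0.02.

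Among 8 measured further genes described as induced through the receptor in mouse tissues, 1 fell and 7 did not pass. By adjusted p alone 1 was higher and 1 lower, and by unadjusted p under 0.05 there were 2 higher and 2 lower. Cyp2s1, a cytochrome P450 gene outside the Cyp1 family, had log2 values of 5.27, 5.25 and 5.46 with icilin and 6.36, 6.51 and 6.54 with vehicle. The icilin arrays were low by more than the spread of either group, a 2.21-fold difference (-1.14 ± 0.09, adjusted p = 0.00144). Nqo1, the quinone reductase gene that receptor ligands and NRF2 induce, was named after its value was seen. Its log2 values of 4.50, 4.12 and 4.50 with icilin and 3.75, 3.66 and 4.25 with vehicle overlapped (0.49 ± 0.18, adjusted p = 0.227). The overlap was that of icilin replicate 2 with vehicle replicate 3, and Nqo1 was dim, at brightness percentile 42.9. Without vehicle replicate 3, Nqo1 passed both limits as higher with icilin (0.67, adjusted p = 0.0956), which made 2 passing genes on the list. It did not pass when any other array was left out. Nfe2l2, also named after its value was seen, had means of 8.72 with icilin and 8.48 with vehicle (0.24 ± 0.06, adjusted p = 0.0991), short of 1.5-fold. The list median was -0.08.

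Of 13 measured T helper genes linked to the receptor, 1 rose and 12 did not pass. By unadjusted p under 0.05, 2 were higher and 0 lower. Ikzf3, which encodes the lymphoid zinc finger factor Aiolos, had log2 values of 8.89, 8.90 and 8.94 with icilin and 8.03, 8.01 and 8.14 with vehicle. The groups were far apart against their spread, a 1.80-fold rise (0.85 ± 0.07, adjusted p = 0.00146). The interleukin genes Il22 (-0.15, adjusted p = 0.612) and Il10 (-0.17, adjusted p = 0.338), both named after their values were seen, had means of 1.39 and 5.15 with icilin, against 1.54 and 5.32 with vehicle. Il22 stood at brightness percentile 1.28. Foxp3, also named after its value was seen, had means of 8.28 with icilin and 7.99 with vehicle (0.29 ± 0.08, adjusted p = 0.126). The list median was -0.07.

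Of 12 measured genes for uptake and breakdown of tryptophan, the source of endogenous ligands, 0 passed by limma and 0 by SAM. By unadjusted p under 0.05 there were 3 higher and 0 lower. These 3 were the amino acid transporter genes Slc7a5, Slc3a2 and Slc1a5, and none of the enzyme genes of the list passed that limit. Slc3a2 and Slc1a5 were named after their values were seen. The large neutral amino acid transporter gene Slc7a5 had the smallest p, with means of 11.6 with icilin and 11.2 with vehicle (0.43 ± 0.06, adjusted p = 0.0172), short of 1.5-fold. Its list had a median of 0.03. Ido1, the tryptophan-degrading dioxygenase gene, differed by -0.14 (adjusted p = 0.454) and was named after its value was seen.

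The families of Tiparp and Scin were set beside them. Of 14 measured other genes of the PARP family, 1 rose, 0 fell and 13 did not pass, and by adjusted p alone 4 passed higher and 2 lower. Parp12, an interferon-inducible relative of Tiparp, had means of 5.30 with icilin and 4.70 with vehicle (0.59 ± 0.11, adjusted p = 0.0320), just past 1.5-fold. Its call ended in the fit over every probe set (adjusted p = 0.106) and when icilin replicate 1, icilin replicate 2, vehicle replicate 2 or vehicle replicate 3 was left out (0.53 to 0.59, with adjusted p of 0.110 to 0.121). The lowest difference in the family was that of Parp16 at -0.57, named after its value was seen, against -0.83 for Tiparp. Parp16 passed both limits without icilin replicate 3 (-0.63, adjusted p = 0.0182) or vehicle replicate 1 (-0.59, adjusted p = 0.0381). The family median was 0.13.

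Of 6 gelsolin family genes, 0 passed by limma and 0 by SAM, and by unadjusted p under 0.05 there were 1 higher and 1 lower. The actin-capping gene Capg had the smallest p, with means of 6.32 with icilin and 6.88 with vehicle (-0.56 ± 0.07, adjusted p = 0.00723), short of 1.5-fold; without vehicle replicate 3 it passed (-0.60, adjusted p = 0.0259). Of 5 measured genes for electron donors of cytochrome P450 and for relatives of Aldh3a1, 0 passed by limma and 0 by SAM, and by unadjusted p under 0.05 there were again 1 higher and 1 lower. The reductase gene Cyb5r3 had the smallest p (-0.32 ± 0.07, adjusted p = 0.0524), with means of 9.44 with icilin and 9.76 with vehicle.

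**Figure D4:**
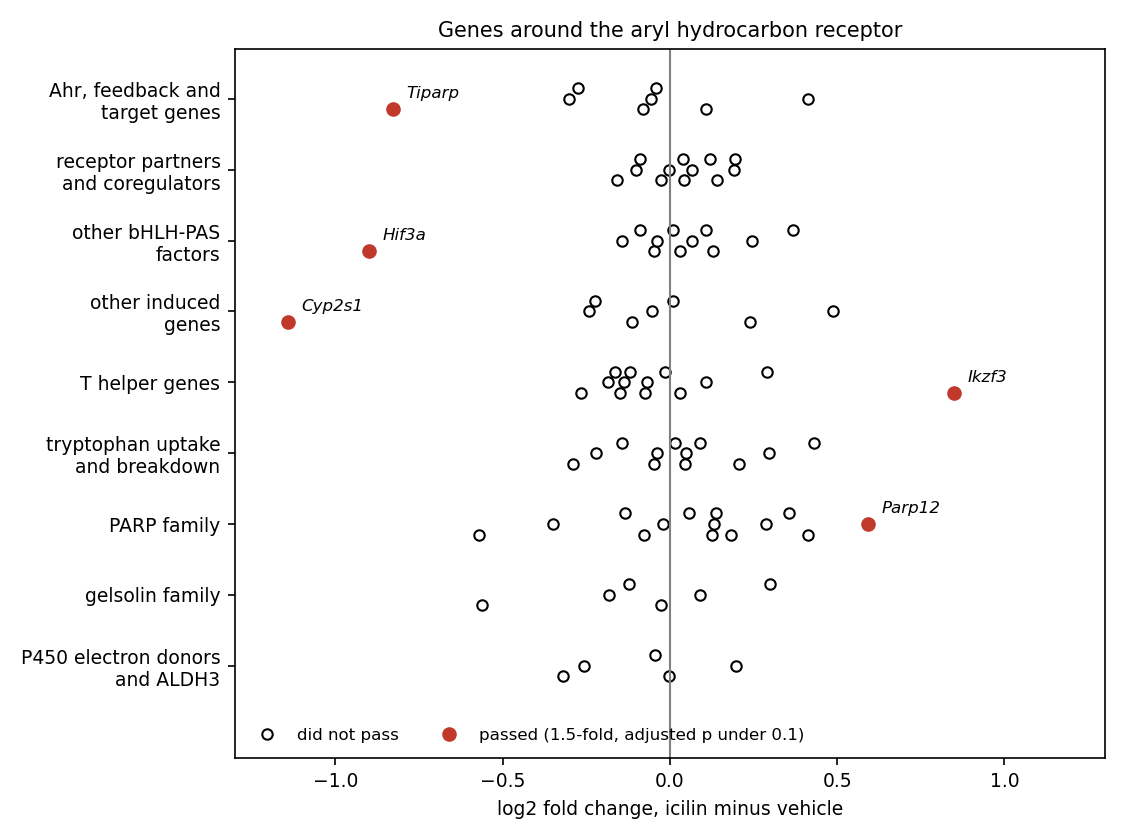
Log2 fold change, icilin minus vehicle (horizontal axis), of each measured gene of the 8 examined genes and of 8 further lists (rows); filled points passed both limits, open points did not. Filled points are Tiparp, Hif3a and Cyp2s1 below 0 and Ikzf3 and Parp12 above 0.

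The genes most alike to Tiparp and Ahr over the 6 arrays were taken from the 10368 genes that were brighter than the median gene, were not members and had no name of a predicted gene, a RIKEN clone, a microRNA, or an olfactory or vomeronasal receptor. For Tiparp they were Prxl2a (Pearson r = 0.999), Fam114a2 (r = 0.999) and Ifitm2 (r = 0.998), and for Ahr they were Rif1 (r = 0.995), Nup155 (r = 0.992) and Ide (r = 0.992). These coefficients describe 6 points in 2 groups and largely follow the step between the groups. The sizes of the differences were not alike: Fam114a2 differed by -0.18 (adjusted p = 0.190), Prxl2a by -0.62 (adjusted p = 0.00972) and Ifitm2 by -1.16 (adjusted p = 0.00418). Without vehicle replicate 1, Prxl2a stood at -0.57, below 1.5-fold. The genes most alike to Ahr differed by 0.12 to 0.20 and did not pass.

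The arrays carried the markers of the labelled cells. All 5 markers of CD4+ T cells, Cd3d, Cd3e, Cd3g, Cd4 and Cd28, lay at brightness percentiles 92.6 to 99.7, and 0 of them passed the test. Cd28 was higher on every icilin array (0.34, adjusted p = 0.0529), short of 1.5-fold, and the groups overlapped for the others. All 7 myeloid and dendritic cell markers and both platelet markers were dimmer than the median gene, as were 3 of 4 markers of CD8 T and natural killer cells and 2 of 4 stromal and epithelial markers. Among the CD8 T and natural killer cell markers, Cd8b1 was brighter, at percentile 70.4, and higher on every icilin array (0.39, adjusted p = 0.167). Cd8a differed by 0.01, Ncr1 by -0.08 and Klrb1c by -0.52, and none passed. Of the 4 measured B cell markers, 3 were brighter than the median gene, Ms4a1 only just, at percentile 50.1. Ms4a1 rose (1.01, adjusted p = 0.00339) and 3 did not pass: Cd79a differed by 0.09, Cd79b by -0.01 and Pax5 by 0.21. The summed linear signal of the B cell markers was 144 to 153 on icilin arrays and 120 to 132 on vehicle arrays, and that of the CD4+ T cell markers 8098 to 8518 and 7792 to 8450. The part of B cells or CD8 T cells in the differences of Ahr and Tiparp was not tested. In bulk RNA, fewer cells of a type and less RNA per cell cannot be told apart.

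**Figure D5:**
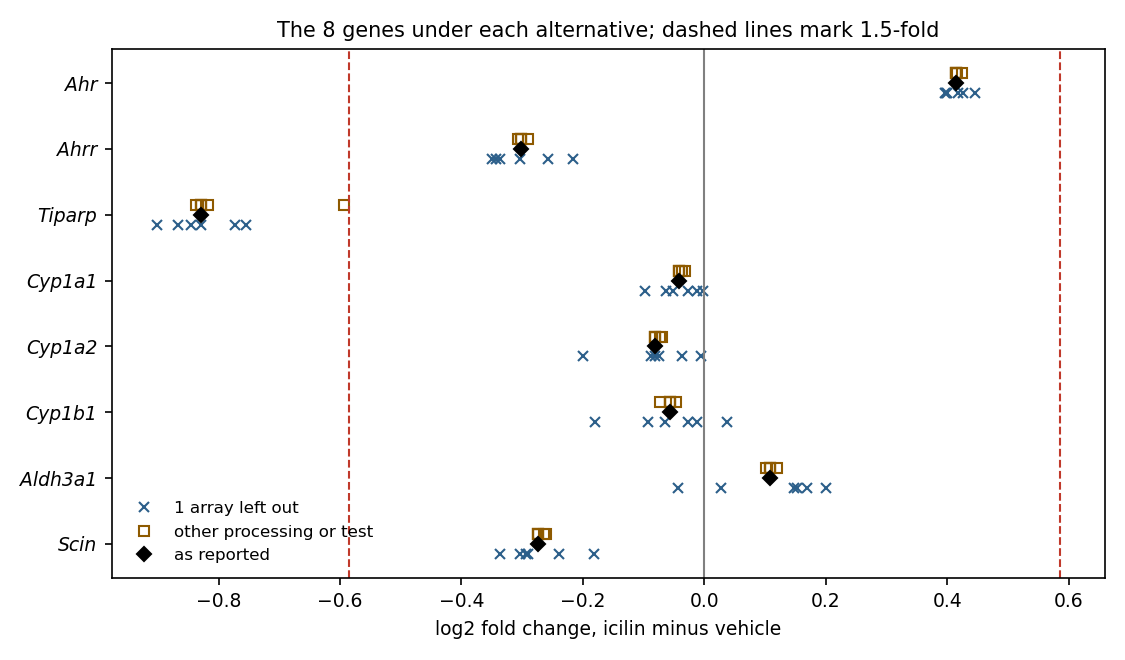
Log2 fold change, icilin minus vehicle (horizontal axis), of the 8 genes as reported (diamonds), with 1 array left out (crosses) and under the other processing and test settings (squares); dashed lines mark 1.5-fold. Tiparp stays beyond the lower line at -0.90 to -0.59, Ahr stays at 0.40 to 0.45, and Cyp1b1 and Aldh3a1 have values on both sides of 0.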

How the data were processed

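RNA of 6 samples was measured on Affymetrix Mouse Gene 2.0 ST arrays. The deposited values are on a log2 scale and were made by the authors with RMA (background correction, normalization between arrays, probe set summary), per the series design text; array medians were 4.24 to 4.30. A genome build for the arrays is not given in the sources used here. Of 41345 probe sets, 23521 had a single gene symbol; for genes with several probe sets the brightest was kept, leaving 22180 genes. Groups were compared with limma 3.58.1 in R 4.3.3 (lmFit, eBayes, no trend, not robust), icilin minus vehicle, two-sided, with Benjamini-Hochberg adjustment over all genes; passing means an adjusted p under 0.1 and at least 1.5-fold. The number of arrays limits the precision (median SE 0.09). The fit and a rewritten SAM were tested on simulated data.

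The members and lists were chosen with earlier results of these data known. Named genes were all members, up to 4 passing genes of each other list (where none passed, the one with the smallest p), and for members brighter than the median gene the 3 genes most alike by Pearson r. The alternatives were a replicate block, trend and robust variances, centring, quantile normalization, leaving out dim genes, averaging probe sets, SAM (20 permutations), other thresholds, a fit over every probe set and leaving out each array. Of 13 genes on the receptor partner, T helper and other lists without a single-symbol probe set, no values are reported. Figures used Python 3.11.15 and matplotlib 3.10.9.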

Additional observations from a re-analysis of the deposited data

How the results depend on the processing

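Of 302 values of 22 named genes under the alternatives, 292 kept their direction and their call, which means passing or not passing both limits together. A move across the adjusted p limit alone was not counted. Cyb5r3 had an adjusted p of 0.0524 as reported and of 0.1183 to 0.1655 with 1 array left out. Of the 8 examined genes, 2 changed sign with a single array left out: Cyp1b1 stood at 0.038 without icilin replicate 2 (-0.18 to 0.038 over the arrays left out) and Aldh3a1 at -0.043 without vehicle replicate 3 (-0.043 to 0.20). At an adjusted p under 0.05 and 2-fold, 87 of all genes passed, 0 of the 8 examined genes, 0 bHLH-PAS genes, 0 T helper genes and 0 PARP genes. With no fold limit, 1170 of all genes passed, 2 of the 8, 2 bHLH-PAS genes, 2 further induced genes, 2 tryptophan genes, 6 PARP genes, 1 gelsolin gene and 1 gene of the electron donor list. In the fit over every probe set 0 PARP genes passed. With 1 array left out the counts were 0 to 1 for the bHLH-PAS list, 1 to 2 for further induced genes, 0 to 2 for the PARP list, 0 to 1 for the gelsolin list and 0 to 1 for the 9 probe sets. The sources used here do not tie array numbers to animals, so the numbers were not taken as pairs. Any matching of arrays by mouse was thus left out of the main fit. Same-numbered arrays did not deviate together (r -0.022 to -0.005, and 0 of 6 arrays correlated best with their own number). Arrays with different numbers were also near 0 (r -0.022 to 0.036). The check therefore cannot decide whether same-numbered arrays share a mouse. With the replicate number as a block, 283 genes passed against 311, Tiparp kept its call (adjusted p = 0.0414), and in the fit over every probe set 0 of the 9 probe sets passed (Tiparp adjusted p = 0.202). The causes were not tested beyond fewer arrays or more probe sets entering the fit.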
